A study of Mus musculus with 40 samples.

Results

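The cortex was examined 30 min after the third of a series of daily closed-head injuries (3xCHI at 0.5 h, n = 3) and compared, gene by gene, with the state just before that injury, for which mice collected 24 h after their second injury stood (2xCHI at 24 h, n = 3). The 6 samples were found by the injury number and time in their labels, out of 40 deposited and 39 used. They carry sample numbers in the study, which name them here: 4, 5 and 22 at 30 min, and 19, 21 and 29 before. Bulk RNA of the left somatomotor cortex was sequenced, and each value is a level for the whole piece of tissue, in which fewer cells of a type and less RNA per cell cannot be told apart.

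All mice were female 3xTg-AD, a line on a C57BL/6J background that carries human transgenes for amyloid precursor protein, presenilin and tau, aged 2 to 4 months, and no wild type animals were among them. The injury was a weight drop onto the intact skull under isoflurane that let the head rotate freely, given once daily. The group at 30 min had thus received isoflurane and the third impact within the last hour, while the group before had received its last exposure and impact 24 h earlier, so that impact and anaesthesia cannot be told apart in this comparison. Sham-injured mice (n = 4) had the anaesthesia without impact and form 1 group with a labelled time of 0, which does not tell how long before collection they were last anaesthetised.

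Neurons answer a burst of synaptic input with a first wave of transcription that needs no new protein. Kinases downstream of calcium entry act on factors already bound at the promoters of immediate early genes, among them Fos, Fosb, Npas4 and Egr family members. Their products are transcription factors that then set off late genes, together with short-lived effectors such as Arc at the synapse, the prostaglandin synthase Ptgs2 and the phosphatase Dusp1, which switches off the kinases again. The transcripts appear within minutes and decay within hours, so that 30 min lies within the first wave. Glia and vessels use part of the same genes after injury, and microglia release chemokines such as Ccl3 and Ccl4.

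The 3 libraries at 30 min did not resemble each other in these genes. Samples 4 and 22 were high, while sample 5 lay at or near the level before the injury. A total of 14928 genes had a mean of at least 1 CPM (counts scaled by TMM to a common library size) over the 6 samples. Of these, 15 lay at least 2-fold above every library before the injury in both sample 4 and sample 22, and 13 of the 15 were on the lists of activity genes. Fosb was the 1 gene that did so in all 3 libraries. The values of the main genes are therefore given per sample, and their fold changes with and without sample 5.

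Depth did not separate the groups, at 17514880 to 19401926 counts per library at 30 min and 18749783 to 23147022 before. Replicate libraries differed by more than sampling noise in each pair within these groups (chi-square per gene 7.91 to 32.1). Summed neuron markers lay at 23428 to 25848 CPM at 30 min and 22901 to 26045 CPM before, and markers of cortical layers at 1152 to 1288 and 1290 to 1342 CPM, so that the defining markers of the labelled tissue were present. The sums of the layer markers did not overlap, with all libraries at 30 min below those before. Sample 29 held more choroid plexus RNA (151 CPM summed, 4.71 to 34.8 in the other 5) and more striatal markers (552 CPM, 219 to 297 in the others). Samples 4 and 5 have numbers between 1 and 18 and the other 4 samples between 19 and 40, a split of the whole series that no label names as a batch. The first principal component of all 39 samples (30.5% of the variance) ran from -49.7 to 4.13 in the lower numbers and from -11.5 to 32 in the higher ones, with medians of -13.5 and 19.3. Sample 4 stood at -19.1, sample 5 at -0.108 and sample 22 at -0.449 on it, and samples 19, 21 and 29 at 23.4, -11.5 and 1.61.

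With 3 samples against 3 and the spread taken from all 39, 0 of 15224 genes (0%) passed an adjusted p of 0.05 (edgeR quasi-likelihood test, Benjamini-Hochberg adjustment). At an unadjusted p under 0.05 there were 286 genes, of which 177 were higher at 30 min (1.16%) and 109 lower (0.716%). DESeq2 on the same samples called 4 genes, Npas4, Fosb, Btg2 and Ptgs2, each higher at 30 min. Without sample 5, edgeR called 5 genes (0.0328%), the same 4 and Tob1, an antiproliferative protein of the Btg family that was named after its values were seen. Leaving out any other of the 6 samples left 0 genes called. Each sample was left out in turn, but sample 5 is singled out in the text because it lacks the high levels of these same genes, so that the calls without it are conditional on that choice and add no independent support. The median log2 fold change of all genes was -0.0017, a value that the TMM scaling holds near 0.

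The promoters of the 4 genes that DESeq2 called are shown because this signalling is known to act through letters close to the start. Each run is the 250 bases before the RefSeq start of the gene (GRCm38.p6), read 5′ to 3′ on the strand of the gene. Capitals mark the short form TGACG, or CGTCA on the other strand, of the cyclic AMP response element, to which CREB binds, and the whole element TGACGTCA where present. Npas4 is at chr19:4989972-4990221, minus strand, Fosb at chr7:19310046-19310295, minus strand, Btg2 at chr1:134079156-134079405, minus strand and Ptgs2 at chr1:150099781-150100030, plus strand.
Npas4: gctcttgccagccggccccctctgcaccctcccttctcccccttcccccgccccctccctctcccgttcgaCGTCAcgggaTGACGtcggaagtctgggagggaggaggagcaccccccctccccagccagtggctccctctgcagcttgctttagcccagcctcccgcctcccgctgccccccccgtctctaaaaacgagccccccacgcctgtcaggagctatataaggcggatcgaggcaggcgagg
Fosb: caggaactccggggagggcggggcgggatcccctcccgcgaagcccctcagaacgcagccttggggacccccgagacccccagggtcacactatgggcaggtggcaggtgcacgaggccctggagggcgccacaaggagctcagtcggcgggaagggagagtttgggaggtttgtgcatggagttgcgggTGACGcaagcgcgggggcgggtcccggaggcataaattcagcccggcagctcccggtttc
Btg2: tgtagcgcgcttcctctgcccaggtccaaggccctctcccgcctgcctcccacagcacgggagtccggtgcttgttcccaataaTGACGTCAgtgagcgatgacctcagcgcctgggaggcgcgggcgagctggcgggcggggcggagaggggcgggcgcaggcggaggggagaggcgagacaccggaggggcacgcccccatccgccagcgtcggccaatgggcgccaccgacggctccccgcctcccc
Ptgs2: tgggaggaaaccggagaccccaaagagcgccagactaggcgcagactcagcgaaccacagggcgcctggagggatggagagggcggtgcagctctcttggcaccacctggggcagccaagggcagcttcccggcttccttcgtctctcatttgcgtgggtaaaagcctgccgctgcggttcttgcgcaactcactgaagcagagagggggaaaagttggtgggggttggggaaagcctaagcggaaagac

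Npas4 held 2 copies of the short form on opposite strands, Fosb held 1 and Btg2 held the whole element. The Ptgs2 run held neither, but the short form lies in the 50 bases past its start, which are not printed. In the full window of 300 bases, which goes on for 50 bases past the start, the short form was found in 11 of the 13 activity genes with an unadjusted p under 0.05 and a promoter in the table (84.6%), in 38 of all 57 activity genes with a promoter there (66.7%), and in 6228 of 27025 promoters of all genes (23%). The whole element was in 3 of the 13 (Btg2, Arl4d and Dusp1; 23.1%), in 15.8% of the 57 and in 2.03% of all promoters. The CArG box, the letters that serum response factor binds, was in 1 of the 13 (Zfp36, 7.69%) and in 1.81% of all promoters. These are matches of letters, not measured binding, and the windows leave out more distant sites.

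Among immediate early transcription factors, 30 of 32 listed were measured well enough to test. Of these, 24 had a higher mean at 30 min, 8 at an unadjusted p under 0.05 and 0 lower at that p, beside 1.16% and 0.716% of all genes, and their median log2 fold change was 0.50. For 4 of the 30, the 2 groups did not overlap with 30 min higher, against 5.04% of all genes, and for 0 with 30 min lower, against 4.71%. In sample 5, 6 of the 30 lay above every library before the injury, as did 18% of all genes.

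Npas4, a factor found almost only in neurons and induced by calcium entry, had the largest fold change of all genes tested. It stood at 14.4, 16.8 and 7.89 CPM before the injury (samples 19, 21 and 29) and at 465, 14.4 and 555 CPM at 30 min (samples 4, 5 and 22). Samples 4 and 22 were far above every library before the injury, and sample 5 was among them. The log2 fold change was 4.72 ± 0.93 (SE, edgeR adjusted p = 0.269, DESeq2 adjusted p = 0.000149), and without sample 5 it was 5.28 ± 0.81.

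Fosb, a partner of Jun proteins in the AP-1 factor, was also above the former range in sample 5. Levels before were 11.8, 7.22 and 10.4 CPM, and those at 30 min were 172, 24.2 and 227 CPM in the same order of samples. The groups did not overlap, since sample 5 was at least 2-fold above every library before the injury, but it was far below the other 2 at 30 min. Of the activity genes, Maff was the other at least 2-fold above in sample 5 (0.652 to 1.11 CPM before and 0.957, 2.48 and 0.916 CPM at 30 min, with a log2 fold change of 0.64 ± 0.65 that turned to -0.01 without sample 5 and -0.02 among samples 19 to 40), and Cebpd was next (2.37 to 3.78 CPM before and 3.49, 7.45 and 4.80 CPM at 30 min). Both are stress-induced factors, and both were highest in sample 5. The log2 fold change of Fosb was 3.84 ± 0.81 (edgeR adjusted p = 0.352, DESeq2 adjusted p = 0.00261) and 4.34 ± 0.79 without sample 5.

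Fos itself, the other AP-1 partner, varied more before the injury, at 38.8, 9.22 and 22 CPM, and stood at 196, 21.1 and 278 CPM at 30 min. Sample 5 lay inside the range before, and the log2 fold change of 2.82 ± 0.83 had an edgeR adjusted p of 1 (unadjusted p = 0.00179). Junb followed the same order, with 60.8, 37.9 and 42.2 CPM before and 241, 57.2 and 266 CPM at 30 min (log2 fold change 2.00 ± 0.58, edgeR unadjusted p = 0.00156). The levels of Jun differed less, with 43.2, 50.9 and 52.9 CPM before and 74.1, 51.7 and 79.4 CPM at 30 min (0.48 ± 0.25, edgeR unadjusted p = 0.0673).

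Btg2, an antiproliferative regulator that recruits the deadenylase complex to messenger RNA, was steady before the injury at 10.4, 10.3 and 12.3 CPM. At 30 min it stood at 89.5, 15.1 and 136 CPM, with all 3 libraries above those before and sample 5 barely so. The log2 fold change was 2.87 ± 0.63 (edgeR adjusted p = 0.394, DESeq2 adjusted p = 0.0163) and 3.36 ± 0.59 without sample 5. Ier2, Egr4 and Nr4a1 were the other factors at an unadjusted p under 0.05. Ier2 was nearly constant before (8.52 to 8.98 CPM) and stood at 36.8, 8.51 and 38.9 CPM at 30 min, with sample 5 just below all 3 libraries before.

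The factors of the Egr family differed from each other. Egr1, the best known of its family, ranged from 185 to 511 CPM before and stood at 421, 258 and 676 CPM at 30 min, so that the groups overlapped (0.40 ± 0.44, edgeR unadjusted p = 0.372, and -0.02 without sample 22). Its relative Egr3 was at 136 to 172 CPM before and at 192, 140 and 310 CPM at 30 min, so that samples 4 and 22 were above the former range and sample 5 was within it (0.53 ± 0.29, edgeR unadjusted p = 0.0739). Klf4 and Csrnp1, in contrast, had groups that did not overlap but small differences, with log2 fold changes of 0.58 ± 0.47 and 0.53 ± 0.29.

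**Figure D1:**
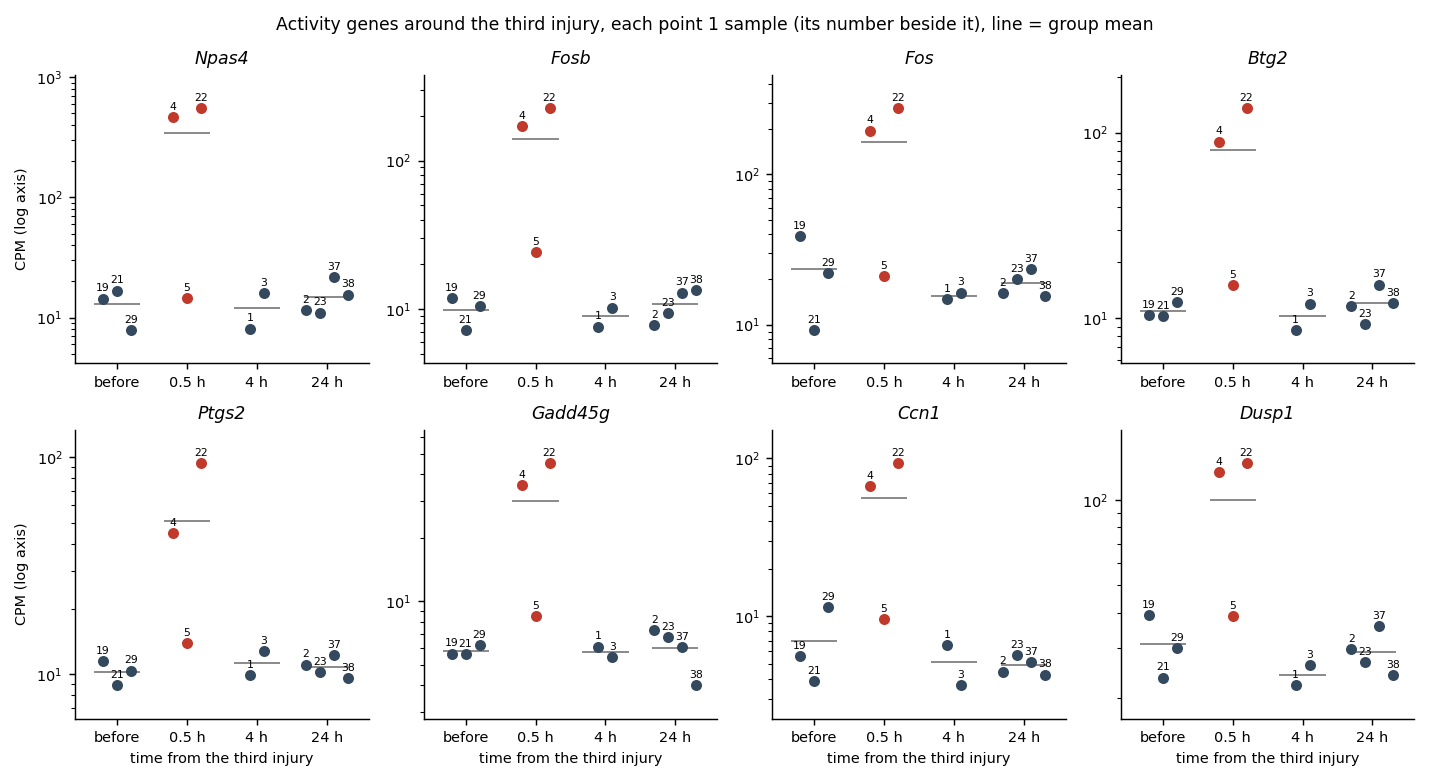
Levels of 8 activity genes in CPM on a log axis (each panel its own range), before the third injury (2xCHI at 24 h) and 0.5, 4 and 24 h after it, with 1 point per sample, the sample number beside it and a line at the group mean. Samples 4 and 22 stand above all others in each panel, sample 5 lies near the libraries before and is clearly above them for Fosb, and the samples at 4 h and 24 h are at the level before.

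Of the 47 effector genes of neuronal activity, all were tested and 30 had a higher mean at 30 min. A total of 7 did so at an unadjusted p under 0.05, and 0 were lower at that p. The median log2 fold change was 0.14. Beside these stand 1.16% and 0.716% of all genes. In 5 of the 47 the groups did not overlap with 30 min higher and in 1 (Peli1) with 30 min lower, beside 5.04% and 4.71% of all genes, and 10 of the 47 lay above all libraries before the injury in sample 5, beside the same 18%. The large differences were in a few members.

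Ptgs2, the inducible cyclooxygenase that makes prostaglandins in active cortical neurons, stood at 11.5, 8.91 and 10.4 CPM before and at 44.6, 13.9 and 94 CPM at 30 min. The groups did not overlap, with sample 5 just above sample 19. The log2 fold change was 2.31 ± 0.52 (edgeR adjusted p = 0.453, DESeq2 adjusted p = 0.0494) and 2.75 ± 0.50 without sample 5. Gadd45g, a stress sensor linked to DNA demethylation, showed little spread before (5.65, 5.61 and 6.18 CPM) and stood at 35.7, 8.51 and 45.3 CPM at 30 min, again without overlap. Its log2 fold change was 2.36 ± 0.58 (edgeR adjusted p = 0.815), and 2.80 ± 0.57 without sample 5.

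Arl4d, a small GTPase of the Arf family, had levels of 26.1, 17.1 and 34.1 CPM before and 77.1, 34.4 and 118 CPM at 30 min, where sample 5 was just above sample 29. Ccn1, a secreted matrix protein made by vessels and glia as well as neurons, was at 5.55, 3.87 and 11.5 CPM before and at 66.4, 9.53 and 93.5 CPM at 30 min (3.03 ± 0.84, edgeR unadjusted p = 0.00109). A pair of feedback regulators shared the pattern. Dusp1 was at 39.3, 23.6 and 29.9 CPM before and 125, 39 and 135 CPM at 30 min (1.69 ± 0.48, edgeR unadjusted p = 0.00141), and Zfp36, which destabilises cytokine messenger RNA, at 2.39 to 5.97 CPM before and 18, 4.26 and 15.7 CPM at 30 min.

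Arc, which acts at the synapse to remove glutamate receptors, had a high and uneven level already before the injury. It stood at 213, 58.6 and 175 CPM there and at 402, 182 and 624 CPM at 30 min (1.44 ± 0.57, edgeR unadjusted p = 0.0173). Sham-injured sample 20, with no injury, reached 485 CPM, above sample 4. Homer1 and Bdnf had means that were lower at 30 min. Homer1 had a log2 fold change of -0.16 ± 0.26, which turned to 0.08 with the sample number range as a covariate and to 0.05 with the sample number as a linear term, and that of the growth factor Bdnf was -0.10 ± 0.21, which turned to 0.06 among samples 19 to 40 alone.

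**Figure D2:**
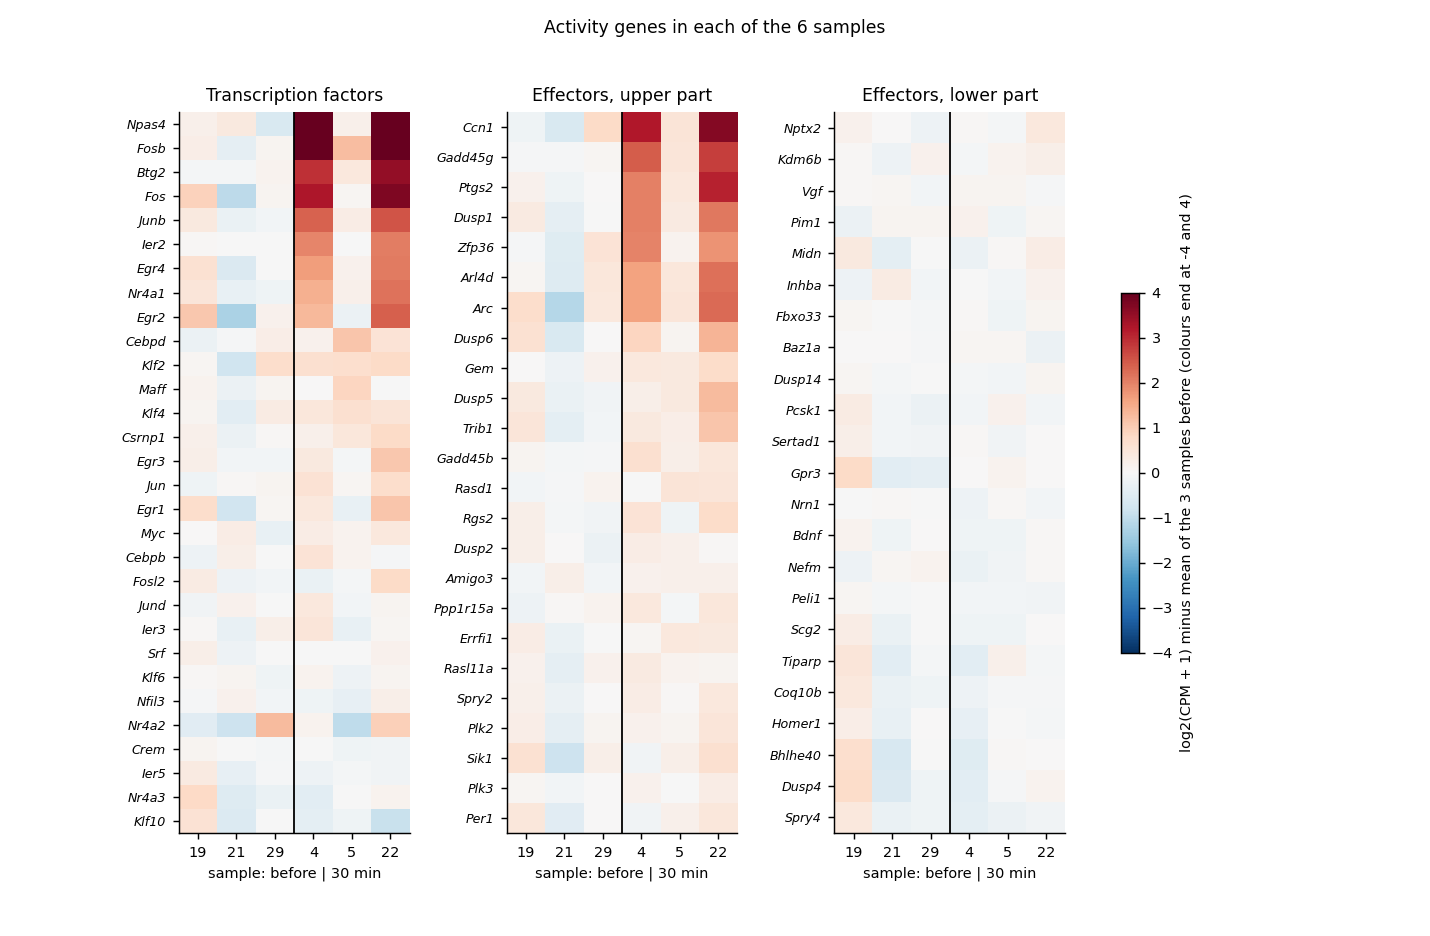
Each row is 1 of the 77 tested activity genes and each column 1 of the 6 samples, with colour giving log2(CPM + 1) minus the mean of the 3 samples before the injury (red higher, blue lower, colours ending at -4 and 4). The columns of samples 4 and 22 are red in the upper rows, that of sample 5 is much paler in the same rows, and the right panel, which holds the 23 effectors with the lowest fold changes, is pale throughout.

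A within-range comparison was possible for sample 22 alone, since samples 4 and 5 belong to the lower sample numbers. Sample 22 was already seen to be high, and the fit of samples 19 to 40 leaves out sample 5 and holds no spread within the 30 min group. Its values are therefore given as effect sizes only. Against samples 19, 21 and 29, the log2 fold change was 5.41 for Npas4, 4.54 for Fosb, 3.64 for Btg2 and 3.20 for Ptgs2. It was 2.97 for Gadd45g, 1.07 for Egr3 and 1.06 for Zfp36l2, a relative of Zfp36 named after its values were seen. With the range as a covariate over all 39 samples, 0 genes passed an adjusted p of 0.05 (edgeR). The log2 fold change of Npas4 in that fit was 4.72 ± 0.95.

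Outside the lists, 1700016P03Rik, a noncoding RNA, was also at least 2-fold above every library before in samples 4 and 22. It was at 0.869, 0.609 and 1.12 CPM before and 7.54, 1.47 and 12.4 CPM at 30 min (3.04 ± 0.76, edgeR adjusted p = 0.815). The same held for Fam220a, named after its values were seen, at 1.59, 0.348 and 3.41 CPM before and 12.3, 2.69 and 10.4 CPM at 30 min. Other genes, named on condition that their groups did not overlap (5.04% of all genes, higher), had levels in sample 5 close to those in samples 4 and 22. Zscan12, a zinc finger protein, was at 5.89 to 6.66 CPM before and at 8.84, 8.87 and 8.84 CPM at 30 min (0.47 ± 0.14, edgeR unadjusted p = 0.00224), and Mgme1, a nuclease of mitochondrial DNA, at 4.05 to 5.39 and 6.19 to 7.70 CPM (0.56 ± 0.15, edgeR adjusted p = 0.815). Tagap, a GTPase activator of lymphocytes and microglia, was at 1.00 to 1.44 CPM before and 2.59 to 3.45 CPM at 30 min (1.22 ± 0.39, edgeR unadjusted p = 0.00399).

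The named genes with lower levels at 30 min differed by less than Npas4, Fosb, Btg2 or Ptgs2. Sox18, a transcription factor of the vessel lining, had the smallest p among them, with 6.28, 7.91 and 5.81 CPM before and 4.33, 3.04 and 3.34 CPM at 30 min. All 3 libraries at 30 min were below all 3 before (-0.90 ± 0.23, edgeR adjusted p = 0.815, and -0.81 ± 0.26 without sample 5). Endothelial markers stood beside it at 341 to 437 CPM summed at 30 min and 362 to 462 before, with a median log2 fold change of -0.14. Of the 20, 3 had a higher mean and 2 had groups that did not overlap with 30 min lower, beside 4.71% of all genes, and 0 had an unadjusted p under 0.05, beside 1.16% of all genes higher and 0.716% lower. One of them, Cldn5 of the tight junctions, was at 24.8 to 32.6 CPM before and 19.4 to 22 CPM at 30 min (-0.41 ± 0.24). The part of vessel content in the Sox18 difference was not tested.

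Lactb, Thap11, Hikeshi and Tmem70, genes of mitochondria, transcription and protein import, were among the 15 lower genes with the smallest p. Their log2 fold changes were -0.46 ± 0.13, -0.32 ± 0.09, -0.21 ± 0.07 and -0.26 ± 0.09. Their groups did not overlap, which was a condition of their being named. Pcdha5, a clustered protocadherin, was the one with the larger difference (-0.77 ± 0.26), at 13.3 to 19.9 CPM before and 7.21 to 12.1 CPM at 30 min, but reads of neighbouring protocadherins share exons, which makes its count uncertain.

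**Figure D3:**
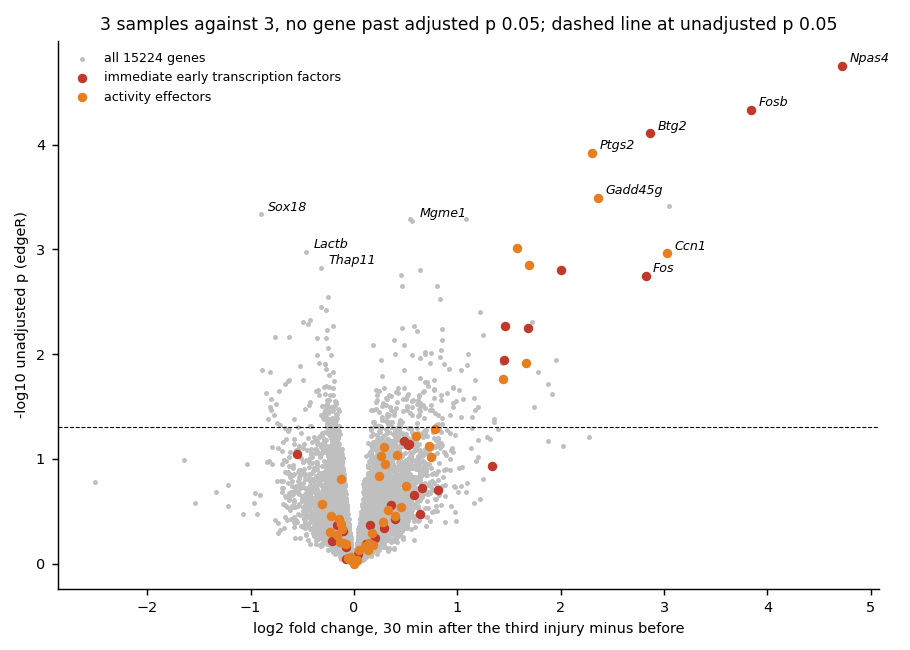
Each point is 1 of 15224 genes, with its log2 fold change at 30 min against before on the x axis and -log10 of its unadjusted edgeR p on the y axis. Npas4 at 4.72, Fosb at 3.84 and Btg2 at 2.87 lie at the upper right, the named lower genes stay above -1, and the dashed line marks an unadjusted p of 0.05.

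Chemokine and cytokine genes were too low for the filter, and 23 of the 28 listed were left out of the test by it. Their raw counts were read instead, and the genes named below were chosen after these had been seen. Summed over the 23 genes, the counts came to 1.28 to 2.16 CPM before and to 10.05, 6.65 and 11.2 CPM in samples 4, 5 and 22, so that sample 5 was above the former range too. Sham-injured samples lay at 2.23 to 2.44 CPM. Other injured groups also held high sums, at 6.53 to 10.05 CPM in 1xCHI at 4 h and 2.73 to 14.1 CPM in 5xCHI at 4 h. In 3xCHI at 24 h, sample 23 stood at 7.05 CPM, above sample 5, and the other libraries of that group lay below sample 5. Sums of this height were thus not limited to 30 min after the injury. For 8 of the 23 genes all 3 libraries at 30 min had higher counts than all 3 before, against 1.58% of all features below the filter, and for 0 genes lower. Those features were not matched to the 23 genes in abundance, and the share by CPM among the genes tested was 5.04%.

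Ccl3, which draws monocytes and is made by microglia, had 0 counts in all 3 libraries before and 21, 12 and 33 counts at 30 min. Set against 3 counts over the group, the limit that a count of 0 allows, the ratio was 24.9. This ratio leaves out the counting error at 30 min and the spread between mice. Ccl12 likewise had 0 counts before and 6, 15 and 7 counts at 30 min, a ratio of 10.5 on the same basis. Both genes were also detected in sham-injured samples, with up to 5 counts of Ccl12 (15 in all 4) and up to 4 of Ccl3 (9 in all 4). The group before was thus low for Ccl12 even beside sham. The related Ccl7 had 2, 0 and 0 counts before and 12, 11 and 11 at 30 min (ratio 19.2, 95% interval 4.93 to 165, counting error only), and Ccl4 had 0, 3 and 0 before and 9, 7 and 21 at 30 min (ratio 13.9, 95% interval 4.41 to 70.7).

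Cxcl10, an interferon-induced chemokine, was highest in sample 5, with 1, 0 and 5 counts before and 23, 36 and 7 at 30 min. Il1b, the cytokine of the inflammasome, had 7, 3 and 1 counts before and 18, 11 and 28 at 30 min. Il1a and Osm resembled Fos and Junb more, since sample 5 stayed near the former level. Il1a had 3, 8 and 8 counts before and 29, 9 and 53 at 30 min, and Osm had 1, 4 and 0 before and 10, 2 and 17 at 30 min. In an edgeR fit with no filter on 32784 features, 10 of the 23 genes were higher at an unadjusted p under 0.05, against 1.3% of all features, and the smallest edgeR adjusted p was 0.316, of Ccl3.

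**Figure D4:**
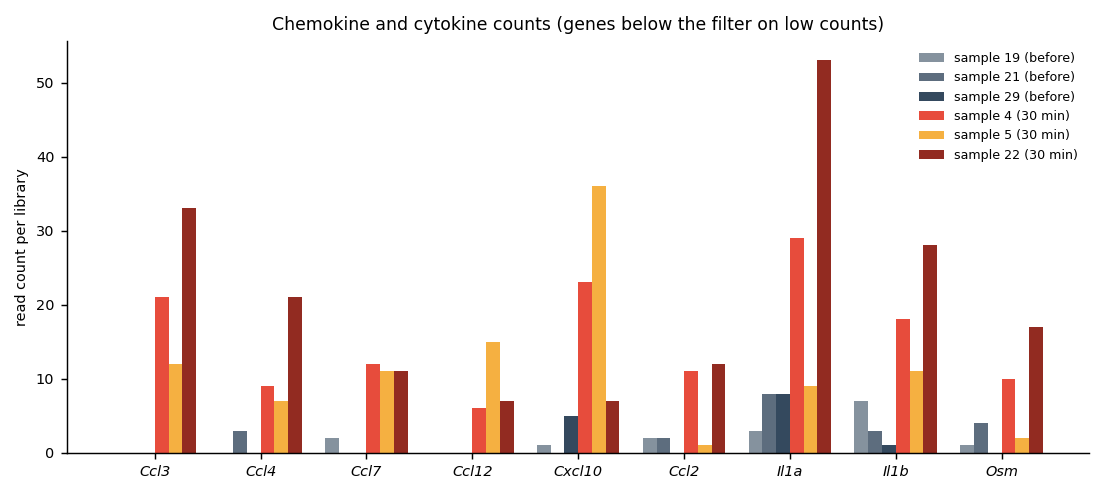
Bars give the raw read count of 9 chemokine and cytokine genes in each of the 6 libraries, grey before the third injury and coloured at 30 min. Ccl3 and Ccl12 have no bar before and one in every library at 30 min, and the bar of sample 5 (light orange) is the tallest for Cxcl10 and Ccl12.

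Regulators that answer these cytokines were partly higher. Nfkbiz, an inducible modulator of NF-kB, was at 4.20, 4.96 and 5.76 CPM before and at 7.83, 7.60 and 9.38 CPM at 30 min, without overlap (0.74 ± 0.28, edgeR unadjusted p = 0.0122). Nfkbid was higher in samples 4 and 22 alone (4.50 and 6.20 CPM, against 1.87 to 2.27 before and 1.98 in sample 5). With Junb, which is also on the list, 3 of the 12 tested feedback genes of NF-kB and cytokine signalling were higher at an unadjusted p under 0.05, beside 1.16% of all genes, and 0 were lower at that p. Il33, an alarmin of glia and one of the 5 cytokines that passed the filter, was at 29.9 to 30.9 CPM before and at 37.7 to 45.7 CPM at 30 min (0.45 ± 0.28, edgeR unadjusted p = 0.117).

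Sample 5 had the highest levels of several genes of reactive astrocytes and interferon. Its markers of the meninges and of leukocytes were the highest of the 6 samples too, at 1078 CPM summed against 637 to 940 before and 844 and 701 in samples 4 and 22, and at 10.6 CPM against 3.84 to 6.62 before. Of the 16 meningeal markers 12 lay above every library before in sample 5, beside 18% of all genes, and of the 12 leukocyte markers 1, Lyz2, passed the filter. Their part in these results was not tested. Gfap, the filament protein of astrocytes, was at 141, 118 and 137 CPM before and at 209, 410 and 227 CPM at 30 min, with all 3 libraries higher and sample 5 the highest (1.10 ± 0.78, edgeR unadjusted p = 0.171, and 0.72 ± 0.86 without sample 5). Vim was at 31.0 to 42.3 CPM before and at 62.5, 110 and 45.8 CPM at 30 min. Serpina3n was at 4.74 to 7.63 CPM before and at 5.97, 28.2 and 9.49 CPM at 30 min, so that samples 5 and 22 were above the range and sample 5 was far above it. The complement gene C4b was at 17.3 to 25.1 CPM before and 41.1, 66 and 28.3 CPM at 30 min, without overlap (1.18 ± 0.71, edgeR unadjusted p = 0.104). Of the 9 tested pan-reactive genes 2, Gfap and Vim, had groups that did not overlap with 30 min higher, beside 5.04% of all genes. None of the 9 had an unadjusted p under 0.05, as 1.16% of all genes had with 30 min higher, and their median log2 fold change was 0.25.

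Guanylate binding proteins, effectors of interferon, were highest in sample 5 and were named after their values were seen. Gbp4 was at 1.12 to 1.87 CPM before and 1.80, 12.4 and 1.46 CPM at 30 min, and Gbp2 at 2.83 to 3.38 CPM before and 4.39, 10.8 and 2.75 CPM at 30 min. Sample 4 was above the former range for Gbp2, and also for Gbp3 (2.56 to 4.30 CPM before and 5.80, 11.7 and 3.77 CPM at 30 min) and Gbp5 (1.48 to 2.51 CPM before and 4.00, 7.80 and 1.29 CPM at 30 min). The edgeR unadjusted p of Gbp3 and Gbp5 was 0.0266 and 0.00651, and 0.327 and 0.253 without sample 5. For Gbp4 and Gbp2 the log2 fold changes were 0.19 ± 0.78 and 0.17 ± 0.43 without it, in place of 1.88 ± 0.76 and 0.93 ± 0.43, and among samples 19 to 40 the value was -0.19 for Gbp2 and -0.50 for Gbp5. The listed interferon genes had a median log2 fold change of 0.59, with 15 of 18 higher on average. Of the 18, 0 had an unadjusted p under 0.05 (1.16% of all genes, higher) and 4 had groups that did not overlap with 30 min higher (5.04% of all genes). Rsad2 and Xaf1, both antiviral, were above the former range in all 3 libraries, at 1.67 to 2.03 against 1.00 to 1.12 CPM and at 5.77 to 7.04 against 3.52 to 5.43 CPM.

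Gm42418, a locus that overlaps ribosomal RNA sequence, was at 900 to 1029 CPM before and at 1119, 2852 and 2300 CPM in samples 4, 5 and 22. It was named after its values were seen. It was highest in sample 5, as were the small structural RNAs Rn7s1 (2.99, 6.69 and 1.81 CPM before and 9.23, 21.7 and 11.6 CPM at 30 min) and Rn7s2 (5.17, 13.6 and 7.89 CPM before and 16.3, 45.7 and 39.2 CPM at 30 min), which were likewise named after their values were seen. The part of these RNAs in the results was not tested.

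Most markers of microglia and of the oligodendrocyte lineage had a higher mean at 30 min, as had 49.5% of all genes, while those of astrocytes were divided. Of 20 microglial markers 19 had a higher mean and 8 had groups that did not overlap, beside 5.04% of all genes, with 603 to 703 CPM summed against 542 to 582 before, a median log2 fold change of 0.21 and 0 at an unadjusted p under 0.05. Trem2, a lipid receptor of microglia, was at 9.18 to 10.1 CPM before and 14.0 to 16.7 CPM at 30 min (0.66 ± 0.43, edgeR unadjusted p = 0.139). Of 20 oligodendrocyte markers 19 were higher on average, with a median of 0.35, 6921 to 8800 CPM summed against 4755 to 6947 before, and 9 without overlap, beside the same 5.04%. Sample 19 alone gave the low end before, since samples 21 and 29 stood at 6947 and 6491 CPM, beside 6921 and 7111 CPM in samples 5 and 22. Ugt8a, an enzyme of myelin lipid synthesis, was the 1 marker of the 20 at an unadjusted p under 0.05 (1.16% of all genes, higher), with 33.2 to 34.9 CPM before and 41.1 to 49.4 CPM at 30 min (0.45 ± 0.22, edgeR unadjusted p = 0.0484).

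All 10 markers of oligodendrocyte precursors had a higher mean, with 269 to 280 CPM summed against 219 to 245 before. Vcan, a matrix proteoglycan, was at 13.4 to 14.0 CPM before and 16.9 to 19.1 CPM at 30 min (0.41 ± 0.18, edgeR unadjusted p = 0.0286). Gpr17 was at 24.6 to 30.9 and 31.2 to 49.6 CPM (0.45 ± 0.21, edgeR unadjusted p = 0.0422). Sham-injured samples lay at 256 to 303 CPM for the precursor markers and at 5853 to 8280 CPM for those of oligodendrocytes, and 1 value at 30 min, of oligodendrocyte markers, exceeded the sham range. Of the 20 astrocyte markers, Gfap among them, 9 had a higher mean, and their median log2 fold change was -0.0069.

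Other groups held 0 members at an unadjusted p under 0.05, which is near the share of all genes (1.16% higher and 0.716% lower) for lists of this size. These were 20 heat shock genes (median log2 fold change -0.10), 22 glucocorticoid targets (0.19), 17 genes of the MAP kinase cascade (-0.05), 18 clock genes (-0.01), 16 of the integrated stress response (-0.02) and 19 antioxidant genes (0.04). The same held for 27 receptor genes (-0.05), 36 channel genes (-0.08), 25 genes of synaptic vesicles (-0.08), 13 transcripts of the mitochondrial genome (-0.10) and 20 neuron markers (-0.06). A higher mean was found for 18 of the 22 glucocorticoid targets, 7 of the 20 heat shock genes, 11 of the 36 channel genes, 9 of the 25 vesicle genes and 0 of the 13 mitochondrial transcripts, beside 49.5% of all genes. The groups did not overlap with 30 min lower for 6 channel genes, 3 heat shock genes and 3 vesicle genes, beside 4.71% of all genes. With an SE near 0.17 for the gene in the middle of the table, small differences in these groups were not detectable at 3 samples a group.

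Mice with the same number of injuries served as a further reference, collected 24 h after the third (n = 4). Against them 0 genes of 15224 (0%) passed in edgeR, with Npas4 the closest (4.53 ± 0.82, adjusted p = 0.0692). At an unadjusted p under 0.05 there were 396 genes higher at 30 min (2.6%) and 231 lower (1.52%). DESeq2 called 9 genes, and edgeR without sample 5 called 9 genes, and both sets were Npas4, Fosb, Fos, Btg2, Ptgs2, Ccn1, Arl4d, Gadd45g and 1700016P03Rik. This comparison shares the libraries at 30 min with the one above, so that it is not a separate measurement of them, and the choice of sample 5 bears on it in the same way.

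In separate mice at 4 h and 24 h after the third injury, Npas4, Fosb and Ptgs2 were near the level before it. Npas4 stood at 8.10 and 16.1 CPM in the 2 samples at 4 h and at 11.0 to 21.6 CPM in the 4 samples at 24 h. Fosb was at 7.62 and 10.2 CPM at 4 h and 7.80 to 13.4 CPM at 24 h, and Ptgs2 at 9.92 and 12.8 CPM and at 9.59 to 12.3 CPM. Ccl3 was still present, with 32 and 12 counts at 4 h and up to 23 counts in a library at 24 h (70 in all 4). Gfap was at 252 to 527 CPM at 24 h, above samples 4 and 22 and around sample 5.

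The response to the third injury was set against those to the first (1xCHI at 0.5 h, n = 3, against sham, n = 4) and the fifth (5xCHI at 0.5 h, n = 3, against 4xCHI at 24 h, n = 3), which share no sample with it. The test of the difference called 0 genes of 15224 in either case (0%), with 963 (6.33%) and 344 (2.26%) at an unadjusted p under 0.05. After the first injury Npas4 stood at 39.8, 26.5 and 12.3 CPM, beside 15.5 to 38.6 CPM in sham. Its difference of the log2 responses was 4.66 ± 1.18 (edgeR adjusted p = 0.448), and Mgme1 had the same adjusted p. Fosb, in contrast, was at 61.0, 116 and 12.8 CPM after the first injury and 7.95 to 21.9 CPM in sham, and its difference of 1.72 ± 1.02 had an unadjusted p of 0.103 in edgeR.

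After the fifth injury 1 library of 3 was high. Npas4 stood at 12.8, 321 and 22 CPM there, and at 13.1 to 51.7 CPM before it. Ptgs2 stood at 12.2, 86.9 and 15.1 CPM and at 10.5 to 12.8 CPM before. The difference of the responses of Npas4 was 2.78 ± 1.16 (edgeR unadjusted p = 0.0233). Groups without a recent impact also held moderately high libraries, such as sham-injured sample 20 with 73.4 CPM of Fos and sample 25 before the fifth injury with 98 CPM, both below samples 4 and 22.

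**Figure D5:**
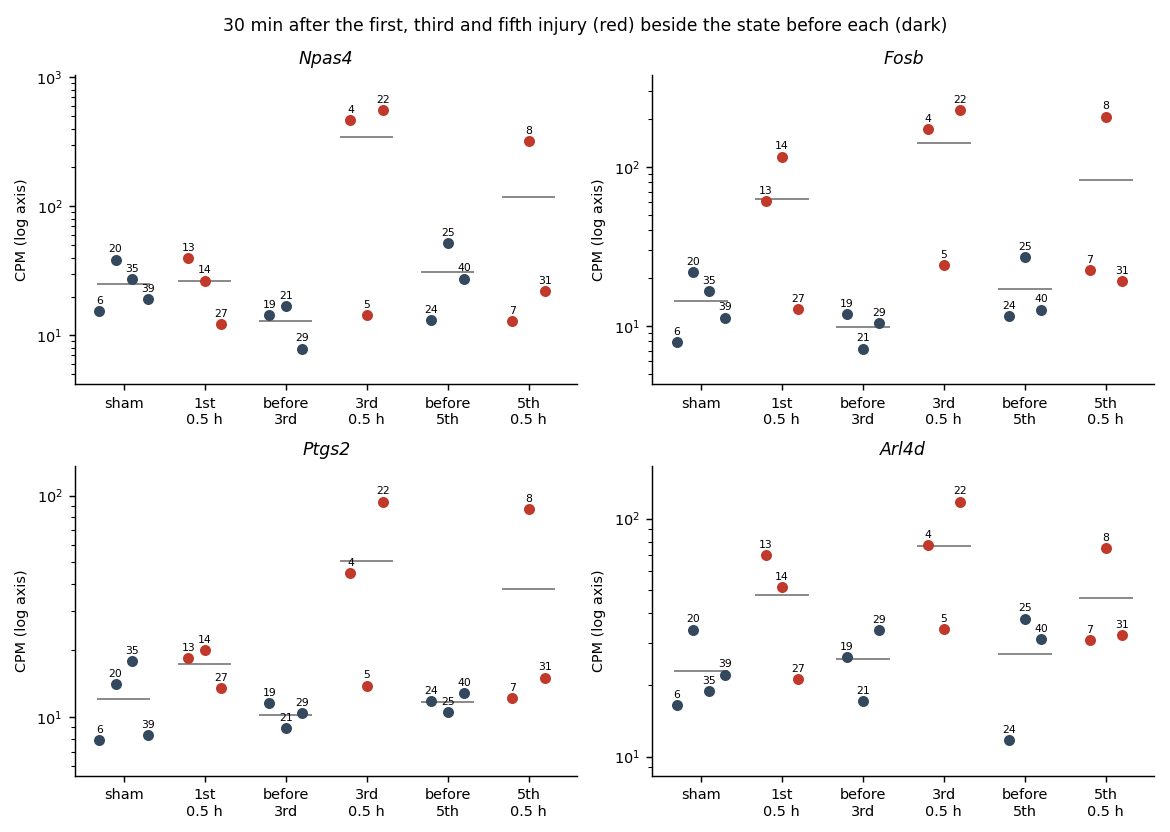
Npas4, Fosb, Ptgs2 and Arl4d in CPM on log axes, with red points 30 min after the first, the third and the fifth injury and dark points for the group before each, numbered by sample, with a line at the group mean. After the third injury samples 4 and 22 are high in all 4 genes, after the fifth sample 8 is, and after the first the points of Npas4 lie around those of sham, with sample 13 just above them and sample 27 just below.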

How the data were processed

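Bulk RNA-seq of 40 samples of left somatomotor cortex was used, of which sample 30 (3xCHI at 4 h) was left out, as in the study. The authors deposited expected counts per gene (estimated counts, neither normalized nor filtered), made by a sequencing company in the layout of salmon's gene output. The labels name mm10, and the tool version is not given in the sources used here. These counts, of which 4.46% were not whole, were rounded here. No column of values was left unmapped. Totals ran from 15926014 to 27859547 per sample.

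A feature was dropped where more than 4 of the 39 samples fell short of 10 counts, which left 15224 of 55539. edgeR 4.0.16 in R 4.3.3 (TMM, quasi-likelihood test, 12 group means over 39 samples, 27 residual degrees of freedom) was the main test, with 0.05 as the threshold on the p adjusted by Benjamini and Hochberg. DESeq2 1.42.0, other size factors, filters, covariates, sva 3.50.0 and leaving out each sample were the alternatives. The test was tested on simulated data. CPM values carry the TMM scaling. The labels do not say how the samples of a group were separated beyond their number, so that p-values measure the spread between these samples. Intervals for low counts are exact at 95% and cover counting error only.

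Named were all members of the 2 activity lists, the 15 higher and 15 lower genes with the smallest p among those with a mean of at least 1 CPM and groups that did not overlap, and of each other list up to 4 genes by p and up to 3 by level; exceptions are marked in the text, and some named genes are not reported here. Of these and the exceptions, 62 tested genes were carried through the alternatives and the search for samples that stand apart. The comparison, its gene lists and its tests were chosen with earlier results of these data known. Cyr61 and Ctgf were found under their RefSeq names Ccn1 and Ccn2. Promoter sequences are from RefSeq (GRCm38.p6), where 57 of the activity genes had one.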

Additional observations from a re-analysis of the deposited data

Results flagged for a closer look

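For 62 genes given in the text or drawn from the same lists, the sham and the 3xCHI at 24 h groups (4 samples each) were searched for a sample far from the others, 124 searches in all. A total of 7 were found, and chance flags about 1 in 20. Sham sample 20 had 131 CPM of Junb, with 46.7 to 53.1 CPM in the other sham samples, 3.74 CPM of Cebpd, with 2.36 to 2.45 CPM in the others, and 15.8 CPM of Vcan, with 19.2 to 19.8 CPM in the others. Sham sample 6 had 37.1 CPM of Cldn5 (20.4 to 22.4 in the others) and 5.39 CPM of Mgme1 (6.07 to 6.17 in the others), and sham sample 39 had 36.8 CPM of Gpr17 (40.8 to 41.2). At 24 h after the third injury, sample 37 had 75.1 CPM of Dusp6 (50.8 to 54.5).

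For 5 genes all libraries 30 min after the third injury lay on one side of those before it, while all libraries after the first or the fifth injury lay on the other side of theirs. Mgme1, Thap11 and Hikeshi were named on condition that their groups did not overlap after the third injury, as 5.04% of all genes did with 30 min higher and 4.71% with 30 min lower. The difference of the responses did not pass the adjusted threshold in edgeR for any of them. Against the first injury it was 0.846 on the log2 scale for Mgme1 (adjusted p = 0.448), -0.401 for Thap11 (adjusted p = 0.76) and -0.336 for Hikeshi (adjusted p = 0.756). Against the fifth it was 0.743 for Mgme1, 1.09 for Il33 and 1.23 for Ugt8a, each with an adjusted p of 1.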

How the results depend on the processing

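The main count of 0 genes at an adjusted p under 0.05 became 4 with DESeq2, 4 with no filter on low counts (Npas4, Fosb, Btg2 and Gm47075, named after the calls were seen) and 7 among samples 19 to 40. Leaving out 1 sample gave 0 to 5, with 5 without sample 5. Of the settings chosen after seeing the data, DESeq2 without sample 5 gave 11 genes and the sample number range as a covariate without sample 5 gave 6. The other size factors, filterByExpr, all 40 samples, only the 6 samples, both covariates and a surrogate variable left it at 0. The count of 286 at an unadjusted p became 623 with no filter, 654 in the fit of the 6 samples, 607 with a surrogate variable and 455 among samples 19 to 40, and leaving out 1 sample gave 180 (without sample 19) to 474 (without sample 21).

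Against 24 h after the third injury, the count of 0 became 9 with DESeq2, 8 with no filter, 1 in the fit of the compared groups (Klf2, likewise), and 0 to 9 leaving out 1 sample. The difference from the first injury gave 0 to 2 genes leaving out 1 sample, the 2 without sample 27, and that from the fifth gave 2 in the fit of the compared groups (Ugt8a and, named after the calls were seen, Gpr37) and 0 to 1 leaving out 1 sample (Tob1, without sample 5). Of 992 values of the same 62 genes under an alternative, 965 kept direction and side, 19 passed the threshold, and 8 changed sign: Homer1 to 0.0798 with the range and 0.0455 with the linear covariate, Bdnf to 0.0581, Gbp2 to -0.190, Gbp5 to -0.504 and Maff to -0.0249 among samples 19 to 40, Maff to -0.00779 without sample 5 (-0.00779 to 0.879 leaving out 1 sample), and Egr1 to -0.0245 without sample 22 (-0.0245 to 0.804 leaving out 1 sample). The cause was not tested. No paired analysis was possible because the groups share no replicate numbers. Counts of at most 53 per library limit the chemokine ratios.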
